A study of Homo sapiens with 12 samples.

Results

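The genes described here are CCN1 and 9 other genes of the Hippo pathway, namely CCN2, ANKRD1, AMOTL2, AXL, LATS2, AJUBA, YAP1, WWTR1 and TEAD1. They are 10 of the 36601 genes in the deposited table of normalized counts, and each was found there under its symbol. They were chosen by name with their values in these libraries already known, since CCN1 was the gene called for a positive departure from additivity of metformin and FK866 in an earlier look at the same data. Their fold changes, counts and calls are therefore descriptions, and no p-value is given for any of the 10. Of the 10 genes, 9 had a mean normalized count of at least 10 and entered the fit across 15376 genes, and ANKRD1 did not.

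The cells were KP4, a human pancreatic cancer line that the labels class as a ductal carcinoma of wild-type genotype. Plates were treated for 24 h with DMSO as the vehicle, with 10 mM metformin (Met), an inhibitor of respiratory complex I, with 5 nM FK866 (FK), an inhibitor of the NAD salvage enzyme NAMPT, or with both drugs (Met+FK). The comparisons ask what each drug does to these transcripts alone and whether FK866 acts alike with and without metformin. There were 3 libraries per treatment, 12 in all, and since nothing says that the 3 were separate cultures, p-values measure only the spread between these libraries. All come from 1 cell line, and lower counts from fewer cells of a kind cannot be told apart from less RNA per cell.

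In the Hippo pathway, the kinases MST1 and MST2 activate LATS1 and LATS2, which phosphorylate the coactivators YAP (gene YAP1) and TAZ (gene WWTR1) and keep them out of the nucleus. Unphosphorylated YAP and TAZ enter the nucleus and bind TEAD factors, TEAD1 among them, to switch on target genes that respond to cell density, attachment and tension. CCN1 and CCN2 encode secreted matricellular proteins that bind integrins, and both are used widely as readouts of YAP activity. ANKRD1, AXL and AMOTL2 are further targets, while LATS2, AMOTL2 and AJUBA also act on the pathway itself. Phosphorylation and location of YAP and TAZ cannot be read from RNA.

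Between 30667735 and 41052203 read pairs were counted per library (median 34767231), and size factors lay between 0.867 and 1.21. The slope of log2 expression on GC content, in log2 units per 10 points of GC, was 0.14 ± 0.084 in DMSO (SD, n = 3), -0.048 ± 0.11 in Met, -0.089 ± 0.14 in FK and -0.0027 ± 0.058 in Met+FK. Values are therefore also given with each library's loess trend on GC content and transcript length removed, here called trend-corrected. Of the ductal markers, KRT8 (2217 to 3222 normalized counts) and KRT18 (9398 to 18721) were abundant, whereas KRT19 (14.6 to 75.0), EPCAM (3.78 to 12.5) and CDH1 (24.2 to 86.5) were low. The mesenchymal gene VIM lay between 93661 and 121917, and the other markers of that list moved in different directions. COL1A1 was at 128 to 175 in DMSO, 52.0 to 80.2 in Met, 228 to 307 in FK and 57.5 to 83.2 in Met+FK, and PDGFRB was at 10.8 to 25.6 in DMSO and 31.3 to 42.9 in Met+FK. CD3E of leukocytes was at no more than 1.01 in any library, while PTPRC lay between 101.4 and 304. The summed ductal markers lay between 21078 and 22049 in DMSO, 11991 and 14552 in Met, 13938 and 18212 in FK, and 11998 and 14979 in Met+FK. The sum moved with the treatments through KRT18, while CDH1 went the other way with metformin (24.2 to 34.8 in DMSO, 47.0 to 69.0 in Met, 61.5 to 86.5 in Met+FK). The part of these markers in the results below was not tested.

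TEAD factors recognise the letters CATTCC, so promoter sequence bears on which of the 10 genes carry such a site near their start. RefSeq windows (GRCh38.p14) from 250 bases before to 50 bases after the start were found for 8 of the 10 genes, 12 windows in all, with CCN1 and TEAD1 not matched. On either strand, CATTCC occurred in 7 of the 12 windows, 1 each from 7 genes, and in 14.03% of 35116 RefSeq windows of the same length. The AP-1 letters TGANTCA, in 7.71% of all windows, occurred in 1 of the 12, that of ANKRD1. The CArG box bound by SRF, in 1.29% of all windows, occurred in none. The motifs overlapped nowhere in these windows. The promoters of CCN2 and ANKRD1 are shown because they held the most TEAD letters, 3 and 2, and because one of these YAP targets was well expressed in KP4 and the other had next to no reads. The 250 bases before each start are given 5′ to 3′ on the gene's strand, at chr6:131951373-131951622 and chr10:90921088-90921337, both on the minus strand. Neither stretch overlaps an exon of GENCODE 44, but the deposited table, whose annotation gives ANKRD1 a start farther upstream than RefSeq and GENCODE 44 do, places most of the second inside that gene. Capitals mark CATTCC, which reads GGAATG on the opposite strand, and TGANTCA where it occurs.
CCN2: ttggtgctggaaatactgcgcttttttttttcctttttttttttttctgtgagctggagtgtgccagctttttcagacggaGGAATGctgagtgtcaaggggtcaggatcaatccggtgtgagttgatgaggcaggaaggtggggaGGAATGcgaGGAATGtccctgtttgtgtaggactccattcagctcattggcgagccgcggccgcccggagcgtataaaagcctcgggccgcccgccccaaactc
ANKRD1: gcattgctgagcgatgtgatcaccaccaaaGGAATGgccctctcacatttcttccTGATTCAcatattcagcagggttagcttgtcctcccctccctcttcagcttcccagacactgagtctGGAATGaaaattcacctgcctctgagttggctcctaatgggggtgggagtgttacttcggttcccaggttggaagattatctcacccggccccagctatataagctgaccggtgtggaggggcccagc

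In CCN2 the first bases of the 3 TEAD matches stood at positions -169, -104 and -95 from the start. In ANKRD1 the first bases of the matches stood at positions -220 and -128 from the start, with the AP-1 match between them at -195. AMOTL2, AXL, AJUBA and YAP1 each had 1 match, with its first base at -69, -212, -59 and -162, and LATS2 had 1 at 9 bases after its start. Both WWTR1 windows held none. These matches are descriptions of letters and do not show binding.

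**Figure D1:**
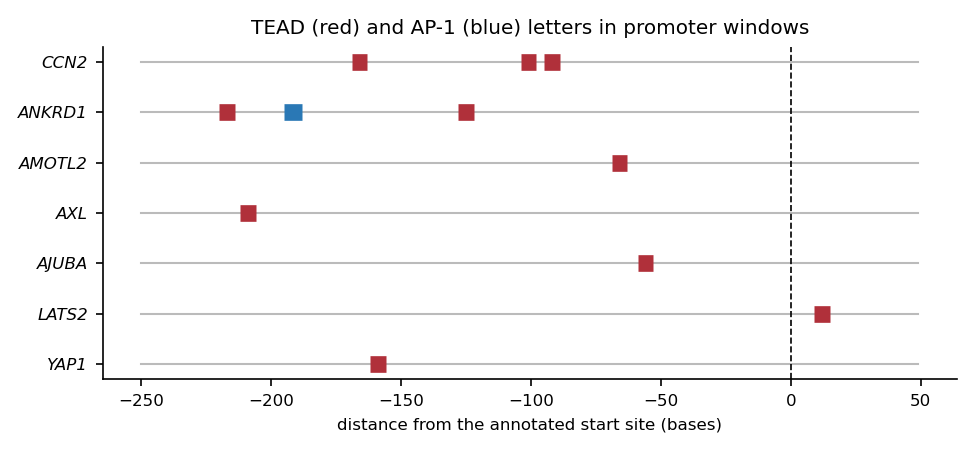
Positions of the TEAD letters CATTCC (red) and the AP-1 letters TGANTCA (blue), on either strand, in the RefSeq promoter windows that held a match, with distance from the annotated start in bases on the x axis and 1 gene per line. CCN2 has 3 TEAD matches, ANKRD1 has 2 with the AP-1 match between them, and the other 5 genes have 1 each.

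Per kilobase of canonical transcript, the mean normalized counts over all 12 libraries were 3398 for AXL, 3088 for WWTR1, 2449 for CCN1, 1191 for CCN2, 937 for YAP1, 736 for AJUBA, 524 for AMOTL2, 486 for TEAD1, 305 for LATS2 and 0.164 for ANKRD1. The ranges of single libraries overlapped between neighbours in this order except between CCN1 and CCN2, between TEAD1 and LATS2, and between LATS2 and ANKRD1. CCN1 and CCN2 were thus both well expressed in KP4, and ANKRD1 was all but silent.

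CCN1 (ENSG00000142871), on the plus strand of chromosome 1 from 85580761 to 85583950 in hg38, was lower with either drug alone, and its libraries with both drugs overlapped the vehicle. Its normalized counts were 6835, 5844 and 5725 in DMSO, a mean of 6135 ± 609.8 (SD, n = 3). They were 4859, 5075 and 5282 in Met (5072 ± 211) and 5218, 4032 and 4364 in FK (4538 ± 611). They were 6171, 6758 and 6787 in Met+FK (6572 ± 348). All libraries with 1 drug lay below all DMSO libraries, all Met+FK libraries lay above all libraries with 1 drug, and Met+FK overlapped DMSO through DMSO replicate 1.

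On the log2(normalized count + 1) scale, CCN1 differed from DMSO by -0.27 ± 0.095 (SE) in Met, by -0.44 ± 0.095 in FK and by 0.10 ± 0.095 in Met+FK. FK866 added to metformin gave a difference of 0.37 ± 0.095, and metformin added to FK866 gave 0.54 ± 0.095. Trend-corrected, these 5 differences were -0.20, -0.37, 0.16, 0.36 and 0.54. The signs were the same on both scales. With all libraries scaled to the same total, Met against DMSO was -0.15. The trend-corrected block fit adds the replicate number as a term. In it CCN1 (0.16 ± 0.066) and CCN2 (0.18 ± 0.076) passed an adjusted p-value of 0.05 for Met+FK against DMSO, beside 64.5% of all genes. CCN1 has a GC content of 50.5%, and its transcript overlaps no other annotated exon.

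**Figure D2:**
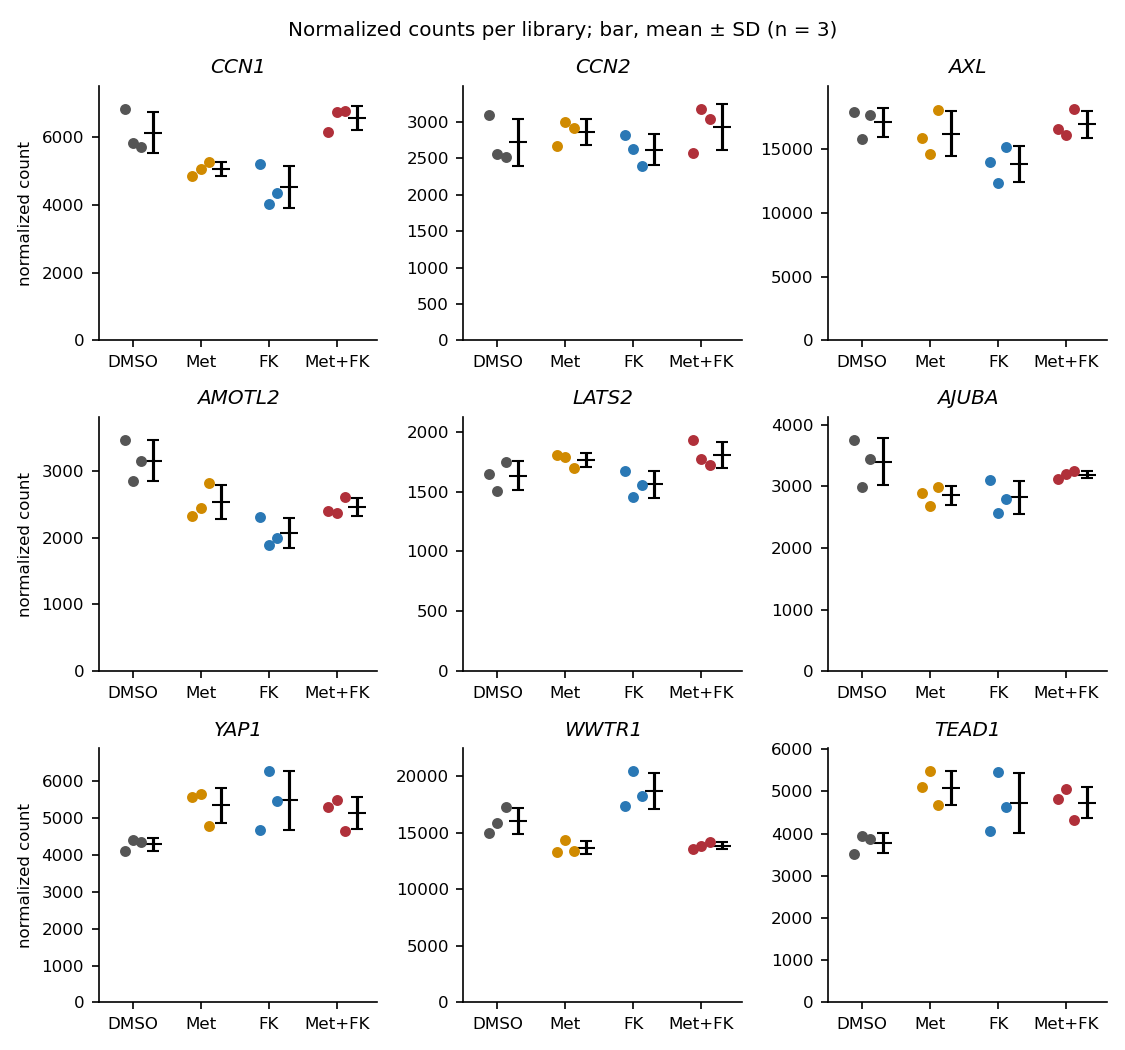
Normalized counts (y axis, linear and starting at 0) of 9 genes in each library, with 3 points per treatment in the order of replicates 1 to 3 and a bar at the mean ± SD (n = 3). CCN1 is lowest with either drug alone, and its Met+FK libraries, between 6171 and 6787, lie in the range of DMSO. YAP1 and TEAD1 lie above DMSO in every drug-treated library as deposited. Trend-corrected, the FK and Met+FK libraries of YAP1 and TEAD1 overlap DMSO.

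CCN2 (ENSG00000118523, chromosome 6 from 131948176 to 131951372, minus strand) is the closest relative of CCN1 among the 10, and its libraries did not separate by treatment. Its counts were 3096, 2562 and 2512.5 in DMSO (2723.5 ± 324), 2667, 3001 and 2916 in Met (2861 ± 173), 2827, 2635 and 2398 in FK (2620.1 ± 215), and 2572, 3177 and 3040.0 in Met+FK (2929.8 ± 317). Every pair of treatments overlapped. Its differences lay between -0.05 ± 0.10 (FK against DMSO) and 0.16 ± 0.10 (Met+FK against FK) on the log2 scale, and none passed an adjusted p-value of 0.05 in the fit across all genes.

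ANKRD1 (ENSG00000148677, chromosome 10 from 90912096 to 90921276, minus strand), a nuclear and sarcomeric ankyrin-repeat protein and a strong YAP target in many adherent cells, had no read in 10 of 12 libraries. Its only reads were 1 read pair in Met+FK replicate 1 and 3 read pairs in Met+FK replicate 2. A count of 0 allows up to 3 read pairs in a library, for counting error only. No difference between treatments was detectable at this depth.

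AMOTL2 (ENSG00000114019, chromosome 3 from 134355874 to 134375479, minus strand), an angiomotin that binds YAP at cell junctions and is itself a YAP target, had the largest difference of the 10 genes with FK866. Its counts were 3455, 2845 and 3148 in DMSO (3149 ± 305), 2329, 2442 and 2814 in Met (2528 ± 254), 2312, 1883 and 1999.6 in FK (2065 ± 222), and 2395, 2362 and 2611 in Met+FK (2456 ± 135). Every drug-treated library lay below every DMSO library. The differences from DMSO were -0.32 ± 0.10 in Met, -0.61 ± 0.10 in FK, a fold of 0.655, and -0.36 ± 0.10 in Met+FK. With both drugs AMOTL2 thus stood below the vehicle.

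AXL (ENSG00000167601, chromosome 19 from 41219223 to 41261766, plus strand), a receptor tyrosine kinase for GAS6, was lower in FK than in both DMSO and Met+FK. Its counts were 17892, 15809 and 17665 in DMSO (17122 ± 1143), 15871, 14623 and 18111 in Met (16202 ± 1767), 14025, 12325 and 15155 in FK (13835 ± 1424), and 16582, 16137 and 18147 in Met+FK (16956 ± 1056). The FK libraries lay below all DMSO and all Met+FK libraries and overlapped those of Met. The difference was -0.31 ± 0.092 for FK against DMSO and 0.30 ± 0.092 for Met+FK against FK, but -0.08 ± 0.092 for Met and -0.01 ± 0.092 for Met+FK against DMSO.

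AJUBA (ENSG00000129474, chromosome 14 from 22971177 to 22982551, minus strand), a LIM-domain scaffold that inhibits LATS kinases at junctions, resembled CCN1 with smaller differences. Its counts were 3752, 2996 and 3451 in DMSO (3399.5 ± 380.4), 2892, 2690.1 and 2985 in Met (2856 ± 151), 3101, 2572 and 2797 in FK (2823 ± 265), and 3125, 3209.85 and 3244 in Met+FK (3193 ± 61.0). The 3 Met libraries lay just below all DMSO libraries, FK overlapped DMSO, and Met+FK lay above both single drugs. The differences from DMSO were -0.25 ± 0.091 in Met and -0.27 ± 0.091 in FK, and FK866 added to metformin gave 0.16 ± 0.091.

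LATS2 (ENSG00000150457, chromosome 13 from 20973036 to 21061586, minus strand), a kinase that YAP induces and that inhibits YAP in turn, stayed within a narrow range. Its counts ran from 1504.5 to 1748 in DMSO (1632 ± 122), from 1699 to 1803 in Met (1763 ± 55.5), from 1453 to 1672 in FK (1559 ± 109.5) and from 1720.0 to 1929 in Met+FK (1808 ± 108). Of the 5 comparisons, only Met+FK against FK was free of overlap, with a difference of 0.21 ± 0.083.

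YAP1 and WWTR1 encode the coactivators YAP and TAZ, and TEAD1 encodes a TEAD factor that they bind. YAP1 (ENSG00000137693, chromosome 11 from 102110447 to 102233424, plus strand) was at 4092, 4412 and 4355 in DMSO (4286 ± 171), 5577, 5646 and 4790 in Met (5337.5 ± 476), 4684, 6267 and 5467 in FK (5473 ± 791), and 5285, 5478 and 4654 in Met+FK (5139 ± 431). Every drug-treated library lay above every DMSO library, and the 3 drug treatments overlapped one another. The differences from DMSO were 0.31 ± 0.10 in Met, 0.34 ± 0.10 in FK and 0.26 ± 0.10 in Met+FK.

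TEAD1 (ENSG00000187079, chromosome 11 from 12674421 to 12944737, plus strand), a DNA-binding partner of YAP and TAZ, was at 3515, 3949 and 3863 in DMSO (3776 ± 229.6), 5104, 5480.4 and 4670.0 in Met (5085 ± 406), 4056, 5465 and 4638 in FK (4719 ± 708), and 4831, 5049 and 4328 in Met+FK (4736 ± 370.0). As with YAP1, no drug-treated library reached down to DMSO. The differences from DMSO were 0.43 ± 0.10 in Met, 0.31 ± 0.10 in FK and 0.33 ± 0.10 in Met+FK.

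WWTR1 (ENSG00000018408, chromosome 3 from 149517235 to 149736714, minus strand) differed from YAP1 in that its level was lower wherever metformin was present. Its counts were 14974, 15875 and 17249.9 in DMSO (16033 ± 1146), 13311, 14324 and 13361 in Met (13665 ± 571), 17364, 20431 and 18216 in FK (18670.3 ± 1583), and 13582, 13835 and 14153 in Met+FK (13857 ± 286). All 6 libraries with metformin lay below all 6 without it, and all FK libraries lay above DMSO. The differences from DMSO were -0.23 ± 0.074 in Met, 0.22 ± 0.074 in FK and -0.21 ± 0.074 in Met+FK, and Met+FK against FK gave -0.43 ± 0.074.

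YAP1, WWTR1 and TEAD1 are the AT-rich genes among those tested, with GC contents of 43.5%, 42.2% and 43.0% against 50.5 to 56.3% in the other 6, and the GC slopes of the libraries differed between DMSO and the drugs as given above. Trend-corrected, YAP1 stood at 0.11 in Met, 0.12 in FK and 0.07 in Met+FK against DMSO, and TEAD1 at 0.13, -0.0020 and 0.06. WWTR1 then stood at -0.05 in FK, and at -0.46 in Met and -0.41 in Met+FK. In FK the 3 genes thus lay between -0.05 and 0.12 on the corrected scale, while WWTR1 with metformin lay farther below DMSO than as deposited. The part of GC content in these differences was not tested. AMOTL2 with FK866 was at -0.50 after the correction, AXL at -0.24 and AJUBA at -0.21.

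**Figure D3:**
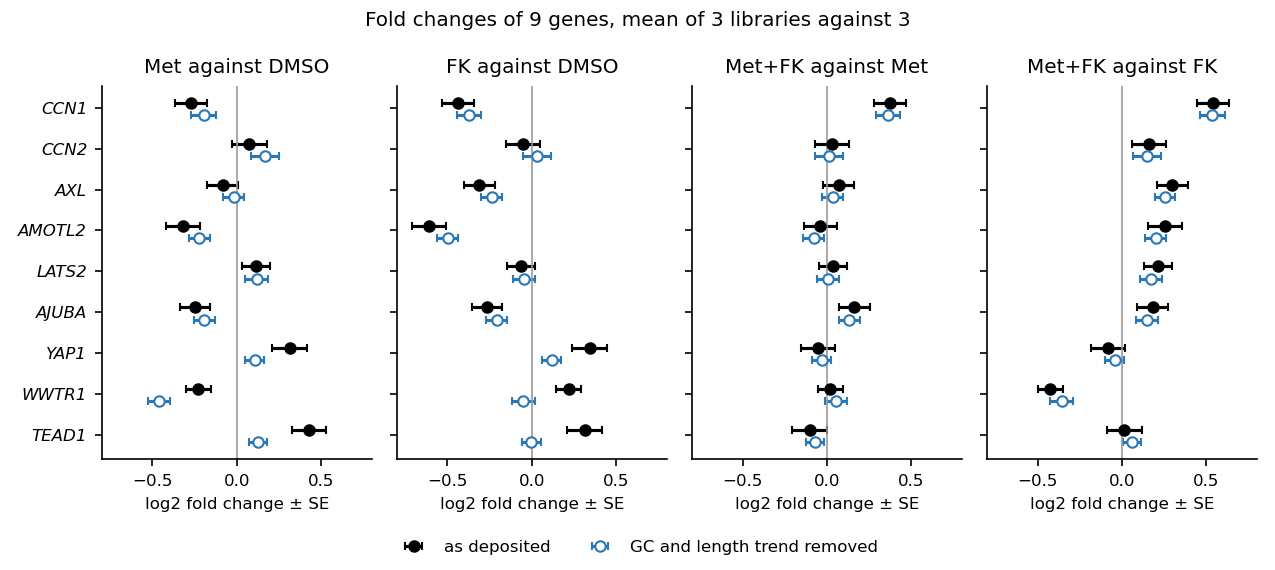
Log2 fold changes ± SE (x axis) of 9 genes (y axis) in 4 comparisons, as deposited (filled) and with each library's trend on GC content and length removed (open). CCN1, AMOTL2, AXL and AJUBA keep their side of 0 in FK against DMSO at -0.37, -0.50, -0.24 and -0.21 after the correction, whereas YAP1, WWTR1 and TEAD1 move to between -0.05 and 0.12.

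A gene was called differentially expressed at an adjusted p-value under 0.05 with a fold change over 1.5, and of the 9 genes tested AMOTL2 with FK866 was called. Over all 15376 genes, 23% were called for Met against DMSO, 3.49% for FK, 25.1% for Met+FK, 0.0585% for Met+FK against Met and 18.6% for Met+FK against FK. By the adjusted p-value alone, 6 of the 9 passed for Met against DMSO (2 higher, 4 lower), beside 50.9% of all genes. For FK against DMSO 7 passed (3 higher, 4 lower), beside 21.1% of all genes, and for Met+FK against DMSO 4 passed (2 higher, 2 lower), beside 52.2%. None passed in limma when FK866 was added to metformin, beside 0.0976% of all genes, where limma called 9 genes, edgeR 9 and DESeq2 19, and 1051 had an unadjusted p under 0.05. For Met+FK against FK 3 passed (2 higher, 1 lower), beside 42.1%, and 6 passed in the block fit, beside 52.5% there. Trend-corrected, 4 of the 9 passed for Met against DMSO, 4 for FK and 2 for Met+FK, beside 57%, 12.1% and 60% of all genes. On that scale 1 (CCN1) passed for FK866 added to metformin and 5 for metformin added to FK866, beside 0.917% and 54%. Since the genes were picked with these values known, nothing is read from their counts.

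The groups did not overlap for 6 of the 9 genes in Met against DMSO, 6 in FK, 4 in Met+FK against DMSO, 2 in Met+FK against Met (CCN1 and AJUBA) and 6 in Met+FK against FK. No share of all genes without overlap was computed for these comparisons, so nothing is read from the counts. The median difference of the 9 genes was -0.083, -0.065, 0.10, 0.030 and 0.18 in these comparisons, and that of all genes tested 0.012, -0.016, 0.014, 0.0063 and -0.011. The comparisons share libraries, the DMSO libraries serving for all 3 treatments. Without DMSO replicate 1 or without FK replicate 2, AMOTL2 was no longer called for FK. Without FK replicate 1 or without Met+FK replicate 1, CCN1 was called for Met+FK against FK.

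The departure from additivity is the effect of FK866 with metformin minus its effect without. For CCN1 FK866 went with -0.44 alone and 0.37 on top of metformin, so the departure was 0.81 ± 0.13, and CCN1 was selected on this value. The other targets departed in the same direction by less, AMOTL2 by 0.57 ± 0.14, AJUBA by 0.43 ± 0.13 and AXL by 0.38 ± 0.13. CCN2 and LATS2 were near additive at 0.08 ± 0.14 and 0.10 ± 0.12. TEAD1 at -0.42 ± 0.15, YAP1 at -0.40 ± 0.14 and WWTR1 at -0.20 ± 0.10 had negative values. Trend-corrected, the departures were 0.73 for CCN1, 0.42 for AMOTL2, 0.34 for AJUBA and 0.27 for AXL, but -0.07 for TEAD1, -0.15 for YAP1 and 0.10 for WWTR1.

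By an adjusted p-value under 0.05, CCN1 alone of the 9 passed for this departure, beside 0.0585% of all genes. In the block fit 6 of the 9 passed, which were CCN1, AMOTL2, AXL, AJUBA, YAP1 and TEAD1, beside 32% of all genes in that fit. In the block fit with the trend removed 4 passed, namely CCN1, AMOTL2, AXL and AJUBA, beside 8.42% of all genes. Leaving out 1 library at a time moved the CCN1 value between 0.73 and 0.92, and CCN1 passed in 1 of these 12 fits, that without FK replicate 1, where 5 of the 9 genes and 12% of all genes passed.

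**Figure D4:**
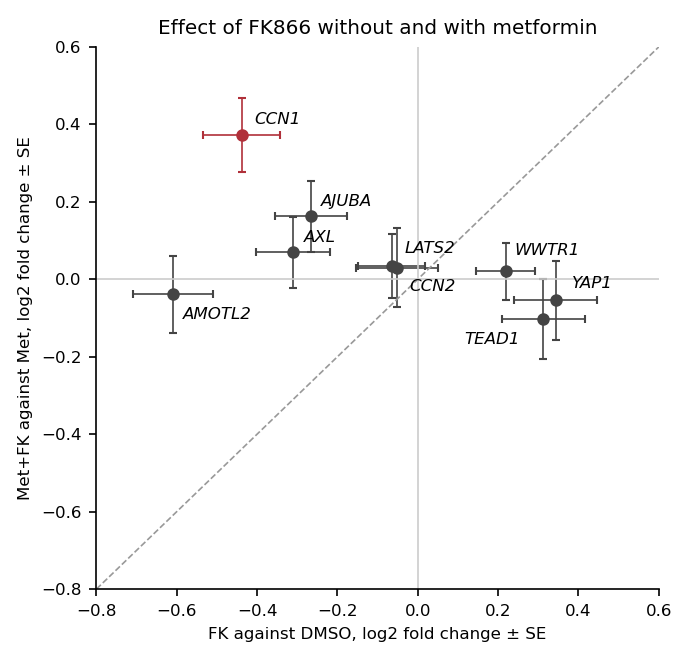
Effect of FK866 on 9 genes without metformin (x axis, FK against DMSO) and with it (y axis, Met+FK against Met), both as log2 fold change ± SE, with the dashed line marking equal effects. CCN1 (red) lies at -0.44 and 0.37, AMOTL2 at -0.61 and -0.04, and YAP1, WWTR1 and TEAD1 on the other side of the line.

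The rest of the pathway was followed in 6 lists that hold 70 other genes, 64 of which were tested. The lists were made with earlier results of these data known. In the paragraphs on each list, genes are named by the size of their called fold changes, so their adjusted p-values are descriptions. Met called 6 of the 64 higher and 6 lower, FK 2 higher and 1 lower, and Met+FK 5 higher and 7 lower, each against DMSO, beside 23%, 3.49% and 25.1% of all genes called in either direction. Metformin added to FK866 gave 3 higher and 6 lower, beside 18.6% of all genes. By limma, 0 of the 64 were called when FK866 was added to metformin and 0 for the departure from additivity, where 4695 of all genes had an unadjusted p under 0.05. In the block fit 29 of the 64 passed for the departure, beside 32% of all genes.

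Another list held 16 further genes described as YAP and TAZ targets. Met and Met+FK called none of them against DMSO, beside 23% and 25.1% of all genes. FK called 1 higher and 1 lower, beside 3.49%. FK866 raised IGFBP3, a secreted binder of insulin-like growth factors, and lowered FJX1, a Golgi kinase related to Drosophila four-jointed. IGFBP3 was at 430.5, 454 and 497 in DMSO and at 776, 1092 and 953 in FK, with no overlap, a difference of 1.02 ± 0.14 (adjusted p = 0.00103). FJX1 was at 1424, 1334 and 1379 in DMSO and at 1042, 788 and 891 in FK, a difference of -0.61 ± 0.099 (adjusted p = 0.0043). The median of the 16 genes was 0.14 in FK against DMSO, beside -0.016 for all genes.

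When metformin was added to FK866, 1 of the 16 rose and 2 fell by the call, beside 18.6% of all genes called. GADD45B, a stress-induced regulator of MAP kinases, rose by 0.59 ± 0.091 (adjusted p = 0.000117). F3, the tissue factor gene that starts coagulation, fell by 0.81 ± 0.11 (adjusted p = 4.84e-05). IGFBP3 fell by 0.66 ± 0.14 (adjusted p = 0.00149), to 507, 622 and 649.8 in Met+FK. The median of the 16 was 0.26, beside -0.011 for all genes.

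Among 13 kinases and adaptors of the pathway, the highest median was that of FK against DMSO, 0.36, with none called, beside 3.49% of all genes. By the adjusted p-value alone 6 were higher and 1 lower there, beside 21.1% of all genes. This median is as deposited, without the trend correction, and the part of GC content in it was not tested. Metformin raised TAOK3, a kinase upstream of MST1 and MST2, from 383, 403 and 422.5 in DMSO to 876, 961 and 882 in Met (1.17 ± 0.12, adjusted p = 1.81e-06), and it stood at 961, 1099.6 and 980.5 in Met+FK (1.33 ± 0.12, adjusted p = 3.94e-07). NF2, which encodes the tumour suppressor merlin and activates LATS kinases at the membrane, fell. Its counts were 26508, 24059 and 26404 in DMSO and 15736, 14662 and 17166 in Met, a difference of -0.70 ± 0.079 (adjusted p = 6.35e-06). Merlin and TAOK3 both feed the same kinase cascade, and their transcripts went in opposite directions. MOB1B, a LATS cofactor, rose with Met by 0.67 ± 0.19 (adjusted p = 0.00748). STK3, the gene of MST2, rose with Met+FK by 0.68 ± 0.15 (adjusted p = 0.00144), and MOB1A fell by 0.71 ± 0.11 when metformin was added to FK866 (adjusted p = 0.000171).

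Among 10 tested upstream and junction proteins, FAT4, an atypical cadherin at the top of the pathway, rose with each treatment. It was at 703, 693 and 721 in DMSO, 1649, 1415 and 1319.9 in Met, 1102, 1442 and 1177 in FK, and 2008, 1966 and 1449.8 in Met+FK. The differences from DMSO were 1.04 ± 0.13 in Met (adjusted p = 1.43e-05), 0.80 ± 0.13 in FK (adjusted p = 0.0043) and 1.34 ± 0.13 in Met+FK (adjusted p = 9.57e-07). WTIP, a LIM protein of the AJUBA family, rose with metformin by 0.65 ± 0.080 (adjusted p = 1.3e-05) and by 0.83 ± 0.080 when metformin was added to FK866 (adjusted p = 1.32e-06). WWC2, a KIBRA relative, rose with Met+FK by 0.59 ± 0.12 (adjusted p = 0.00102).

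Of the 5 tested TEAD and VGLL genes besides TEAD1, TEAD2 fell from 1823, 1779 and 1836 in DMSO to 892, 1052 and 1099.8 in Met (-0.84 ± 0.0996, adjusted p = 9.29e-06) and by 0.95 ± 0.0996 in Met+FK (adjusted p = 2.16e-06). TEAD1 lay on the other side of DMSO in the same libraries. VGLL3, a TEAD cofactor with a mean of 60.2 in DMSO, fell by 0.65 ± 0.24 in Met (adjusted p = 0.0371), and the adjusted p passed in 3 of 6 fits without 1 library. In Met+FK it fell by 0.78 ± 0.24 (adjusted p = 0.0147), which passed in 4 of 6.

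The relatives of CCN1, CCN2 and AXL were followed in a list of 8 genes, 5 of them tested. Of the CCN family only CCN3 was tested, and CCN4, CCN5 and CCN6 lay below the count minimum. CCN3 was at 31.4, 48.6 and 46.8 in Met+FK and at 68.0, 73.4 and 57.4 in FK, a difference of -0.66 ± 0.21 (adjusted p = 0.0215) that passed in 3 of 6 fits without 1 library. TYRO3, a receptor kinase of the AXL family, fell with metformin from 896, 823 and 872 to 422, 418 and 488 (-0.96 ± 0.11, adjusted p = 8.99e-06), and PROS1, a ligand of this family, rose by 0.62 ± 0.14 (adjusted p = 0.00171). AXL itself differed by -0.08 in that comparison.

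SRF with its cofactors MRTFA and MRTFB drives cytoskeletal genes that respond to the same mechanical cues as YAP, and CCN1 is also known as a target of SRF. Of the 15 tested genes of this list, 2 fell in Met, none was called in FK, and 3 fell in Met+FK against DMSO, beside 23%, 3.49% and 25.1% of all genes called. The medians were -0.39, -0.25 and -0.39 beside 0.012, -0.016 and 0.014 for all genes. These medians are as deposited, without the trend correction, and the part of GC content in them was not tested. CNN2, an actin-binding calponin, fell from 12086, 11862 and 11399 in DMSO to 4428, 5249 and 5995 in Met (-1.18 ± 0.12, adjusted p = 1.57e-06) and by 1.35 ± 0.12 in Met+FK (adjusted p = 3.18e-07). ACTB fell by 0.82 ± 0.080 in Met (adjusted p = 1.47e-06), a value that is uncertain because actin genes have near-identical copies. Trend-corrected, CNN2 stood at -1.03 and ACTB at -0.67 in Met against DMSO. By the adjusted p-value alone, 7 of the 15 genes were lower and 1 higher in Met+FK against DMSO, beside 52.2% of all genes. CCN1 overlapped the vehicle in these libraries, and the part of SRF in its values was not tested.

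After the trend correction, 9 of the calls given above for pathway genes lay under the fold threshold. These were FJX1 (-0.42) and FAT4 (0.48) in FK, MOB1B (0.25), WTIP (0.46) and PROS1 (0.37) in Met, STK3 (0.49) and WWC2 (0.33) in Met+FK against DMSO, and GADD45B (0.54) and MOB1A (-0.55) in Met+FK against FK. The part of GC content in them was not tested.

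**Figure D5:**
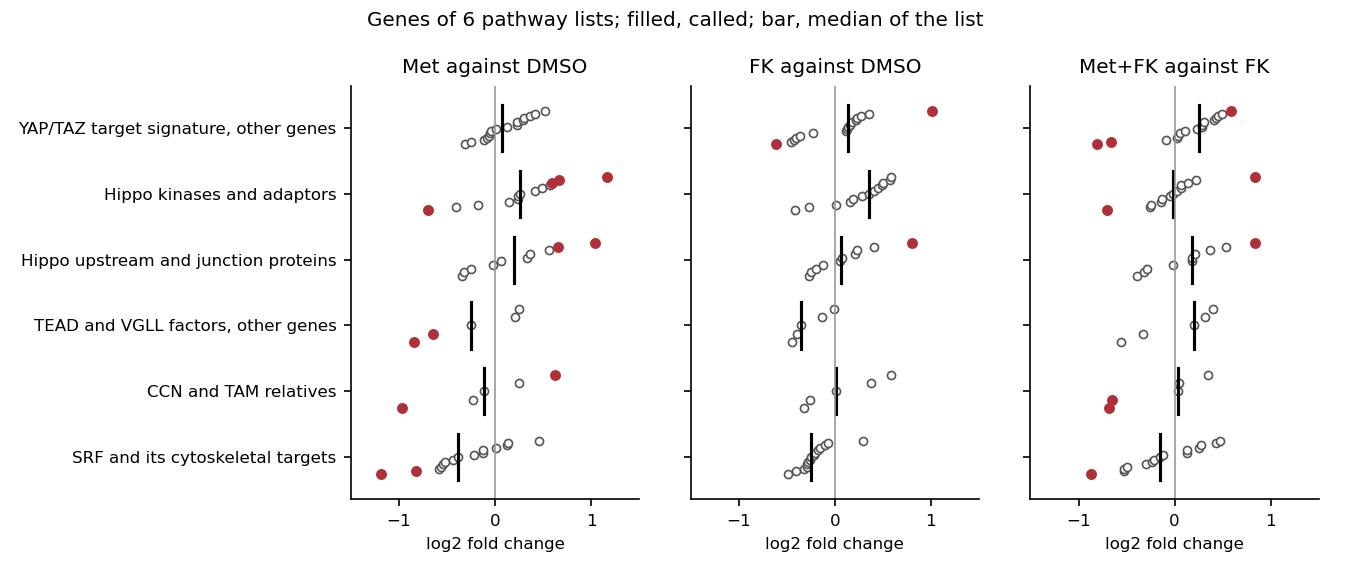
Log2 fold changes (x axis) of the 64 tested genes of 6 pathway lists (y axis) in 3 comparisons, with 1 point per gene, called genes filled red and a bar at the median of each list. The SRF list has medians of -0.39 in Met and -0.25 in FK against DMSO, and the Hippo kinases have a median of 0.36 in FK, all as deposited.

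Over the 12 libraries, genes most like CCN1 by Pearson correlation of log2(normalized count + 1), among 11512 genes with a mean of at least 100, included TSSC4 (0.946), RPL32 (0.942), NLE1 (0.933) and EEF1G (0.931). RPL32 and EEF1G have near-identical copies in the genome, so their values are uncertain. TSSC4 stood at a mean of 1656 ± 86.7 in DMSO, 1461 ± 60.6 in Met, 1301 ± 157 in FK and 1695 ± 150 in Met+FK. Among the 9 genes themselves, the correlation with CCN1 was 0.825 for AJUBA, 0.734 for AXL, 0.690 for AMOTL2, 0.559 for CCN2 and 0.461 for LATS2, and it was -0.510 for TEAD1, -0.588 for WWTR1 and -0.634 for YAP1. These are descriptions over libraries that share 4 treatments, scaling and base composition, and the 4 genes named first correlated more closely with CCN1 than any of the 9 did.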

How the data were processed

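RNA from 12 KP4 libraries was depleted of ribosomal RNA and sequenced as read pairs. Per the methods of the study, cutadapt trimmed the reads, STAR placed them on hg38 and featureCounts assigned pairs to genes. The deposited values are a signal, each library's gene counts scaled by DESeq2 size factors. The annotation and strand setting of the counting are not given in the sources used here, so overlapping and antisense genes are uncertain. Annotated antisense neighbours of the 10 genes held at most 0.661% of a gene's mean. Counted read pairs were recovered from the smallest step of each library, and 100% of values were whole within 0.01. Starts in the table count from 0 and are printed 1 higher.

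The members and gene lists were chosen with earlier results of these data known. limma-trend (limma 3.58.1, R 4.3.3) was fitted to log2(normalized count + 1) with 1 mean per treatment for the 15376 genes whose mean was 10 or more, with Benjamini-Hochberg adjustment over all of them, and was tested on simulated data. Genes were named if they were members, if they were among the 2 largest or smallest called fold changes of a list in a comparison, or if they were among the 5 genes most like CCN1. Some genes that the rule names are left out of the text. Alternatives were pseudocounts of 0.1 and 10, no filter, same-total and TMM scaling, only the libraries compared, a replicate block, removal of a loess trend (span 0.3) on GC content and length of the Ensembl canonical transcript, edgeR (4.0.16) and DESeq2 (1.42.0) on recovered read pairs, a call by adjusted p without a fold, and leaving out single libraries. Deviations of same-numbered libraries correlated at 0.25, 0.42 and 0.22 (FK and DMSO) and 0.17, 0.20 and 0.23 (Met+FK and Met), so the values alone led to reading these as paired. Unless a block is named, the SEs, adjusted p-values and calls come from fits without this pairing. With the trend removed those of Met+FK and Met were 0.157, 0.0961 and 0.0710, not all above 0.1. The other comparisons each had a pair under 0.1 and others above it, up to 0.33 for Met and DMSO.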

Additional observations from a re-analysis of the deposited data

Results flagged for a closer look

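Among the 9 members and 64 pathway genes tested, 3 showed effects of FK866 in opposite directions on its own and on top of metformin. The libraries did not overlap in either comparison. The share of all genes that meet this rule was not computed, so nothing is read from the count. For CCN1 the effects differed by 0.81 on the log2 scale, the value by which the gene was chosen. For GADD45B they differed by 0.71 ± 0.13 (-0.42 ± 0.091 without and 0.28 ± 0.091 with metformin), and this difference missed the threshold in limma (adjusted p = 0.0711) and passed it with the GC and length trend removed. Its counts were 806, 785 and 737 in DMSO, 646, 543 and 549.8 in FK, 684, 721 and 739.6 in Met, and 885, 811 and 916 in Met+FK. For MRTFB, a cofactor of SRF, they differed by -0.51 ± 0.13 (0.29 ± 0.093 without and -0.22 ± 0.093 with metformin), which missed the threshold (adjusted p = 0.109). Its counts were 1417, 1253 and 1387 in DMSO, 1524, 1875 and 1578 in FK, 1346, 1420.2 and 1321 in Met, and 1213, 1223 and 1073 in Met+FK.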

How the results depend on the processing

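Calls by the adjusted p-value and the fold together numbered 0 of 9 members and 12 of 64 pathway genes for Met against DMSO, 1 and 3 for FK against DMSO, 0 and 12 for both drugs against DMSO, 0 and 0 for FK866 added to metformin, and 0 and 9 for metformin added to FK866. Of all genes, 23%, 3.49%, 25.1%, 0.0585% and 18.6% were called in these comparisons. By the adjusted p-value alone they numbered 6 and 38, 7 and 28, 4 and 36, 0 and 0, and 3 and 35. Of all genes, 50.9%, 21.1%, 52.2%, 0.0976% and 42.1% passed that way. For FK against DMSO, AMOTL2 was not called (0 members) with the GC and length trend removed, with or without the replicate block, or by edgeR, and leaving out 1 library gave 0 to 1 members. Pathway calls for FK against DMSO were 5 with same-total scaling, TMM, edgeR and DESeq2, beside 3.73%, 3.75%, 4.01% and 2.87% of all genes. They were 2 to 7 when 1 library was left out, beside 0.611% to 7.82% of all genes. The highest were 6 without DMSO replicate 2 (7.82%), 7 without FK replicate 1 (7.5%) and 5 without FK replicate 3 (4.37%). For Met+FK against FK, 1 member, CCN1, was called with same-total scaling, beside 18.7% of all genes, and 0 to 1 when 1 library was left out.

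For the departure from additivity, 1 member and 0 pathway genes passed. Without a filter on low values 0 members passed. With the replicate block 6 members and 29 pathway genes passed, of 4914 among all genes, with the GC and length trend removed 2 and 1 (GADD45B), of 84, with both 4 and 9, of 1294, and with DESeq2 3 and 13, of 872, against 9 of all genes in the limma fit without a block. Leaving out 1 library gave 0 to 5 members and 0 to 20 pathway genes, the highest without FK replicate 1, where 1845 of all genes passed. The causes were not tested. WWTR1 and TEAD1 in FK against DMSO changed sign with the trend removed, to -0.0495 and -0.0020, with and without the block. Of the other member values under an alternative, 931 moved by less than the replicate spread and 28 by more. Of values of named pathway genes, 508 stayed called and 53 did not. The block changed no other count of called members or pathway genes by over 1.5 times. Over all genes it moved the calls for FK866 added to metformin from 9 to 25 (15 to 120 by the adjusted p-value alone). For FK against DMSO by the adjusted p-value alone it moved the count from 3251 to 6854. With only the 6 libraries compared, this FK count was 152. Leaving out 1 library gave 133 (without DMSO replicate 1) to 4943 (without FK replicate 1). ANKRD1, at 0 in 10 libraries, is limited by depth.
Same-total scaling moved the median of all genes for Met against DMSO from 0.012 to 0.13, and the calls from 1964 higher and 1566 lower to 2835 and 1025, and for Met+FK against DMSO from 2110 and 1745 to 2630 and 1396. In Met against DMSO, CCN1 then lay at -0.15, AMOTL2 at -0.20, AJUBA at -0.12, WWTR1 at -0.11, LATS2 at 0.24 and AXL at 0.039, and AXL in Met+FK at 0.069.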
